A study of Mus musculus with 2 samples.

Results

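The genes described here are 38 components of the Wnt signalling pathway in MN1, of 21938 protein-coding gene entries in the annotation. They were taken by name from a list of 19 Wnt ligands, 12 receptors (10 Frizzled proteins and the co-receptors Lrp5 and Lrp6) and 7 intracellular genes (Axin1, Axin2, Ctnnb1, Tcf7, Tcf7l1, Tcf7l2 and Lef1), and every name was found in the annotation. DNase-seq, which reads out DNA that the enzyme DNase I can cut in nuclei, was measured in MN1, labelled an immortalized mouse line of strain B6NCrl. There is 1 group with 2 biological replicates and 1 library each, and no second condition. The labels give no tissue, treatment, age or sex and do not say whether the line is 1 clone. They name sequencing instruments for replicate 2 only. With 1 group of 2 libraries no test between conditions was possible, so calls were counted in both libraries and set beside the same counts over all protein-coding genes.

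Wnt proteins are secreted, lipid-modified ligands that bind Frizzled receptors and, in the canonical branch, an LRP co-receptor. Without ligand, beta-catenin (Ctnnb1) is held in a degradation complex scaffolded by the axins. With ligand it accumulates, enters the nucleus and binds the TCF/LEF factors at target genes. Other branches act without beta-catenin, on planar cell polarity and on calcium. In the developing nervous system the pathway is known for patterning the neural tube along both its axes, for the growth of progenitors and for axon guidance. DNase I sensitivity shows where chromatin is accessible and does not measure transcription, so an accessible promoter below is not a statement about expression.

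The authors' peak lists held 170600 distinct peaks in replicate 1 and 162983 in replicate 2. Their hotspots, which are wider accessible regions, covered 58.8 Mb and 54.1 Mb of the main chromosomes. The read depth is unknown. Of the neuronal markers, 11 of 11 had a promoter peak in both libraries, as did 4 of 6 motor neuron markers (Mnx1 and Slc5a7 had none), 1 of 4 glial markers (Gfap), 3 of 4 fibroblast markers (not Col3a1) and 0 of 4 skeletal muscle markers. The share over all protein-coding genes was 59.2%.

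A promoter peak was a peak within 1 kb of any annotated start site of a gene. The promoter peaks of the 2 libraries did not have to overlap. By this count 28 of the 38 pathway genes had a peak at a promoter in both libraries (73.7%), beside 59.2% of all protein-coding genes. The 7 intracellular genes all had one, as did 13 of the 19 ligands (68.4%) and 8 of the 12 receptors (66.7%). The same 28 genes had a promoter hotspot in both libraries, where the share over all genes was 59.4%. A further 8 genes had a promoter peak in neither library: the ligands Wnt3a, Wnt4, Wnt8a, Wnt9b and Wnt16 and the receptors Fzd8, Fzd9 and Fzd10. The remaining 2 had a peak in 1 library, a call that 3.55% of all genes received.

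Each peak carries a score made by the authors. Its scale is bounded and its normalization is not stated, so the score is also given as a percentile among the peaks of the same library. Among all genes with a promoter peak in both libraries, the best promoter peak had a median percentile of 95.5 in replicate 1 and 95.3 in replicate 2. For the 28 pathway genes the medians were 93.0 and 95.1, with a range from 10.2 to 98.6 in replicate 1 and from 22.6 to 99.5 in replicate 2. By class, the ligands had medians of 82.1 and 83.5, the receptors 96.7 and 96.9, and the intracellular genes 94.7 and 95.6. Best promoter peaks above the 90th percentile in both libraries were found at 16 of the 28 genes, beside 70.2% of all genes with a promoter peak in both libraries. They were 4 of the 13 ligands, 7 of the 8 receptors and 5 of the 7 intracellular genes.

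**Figure D1:**
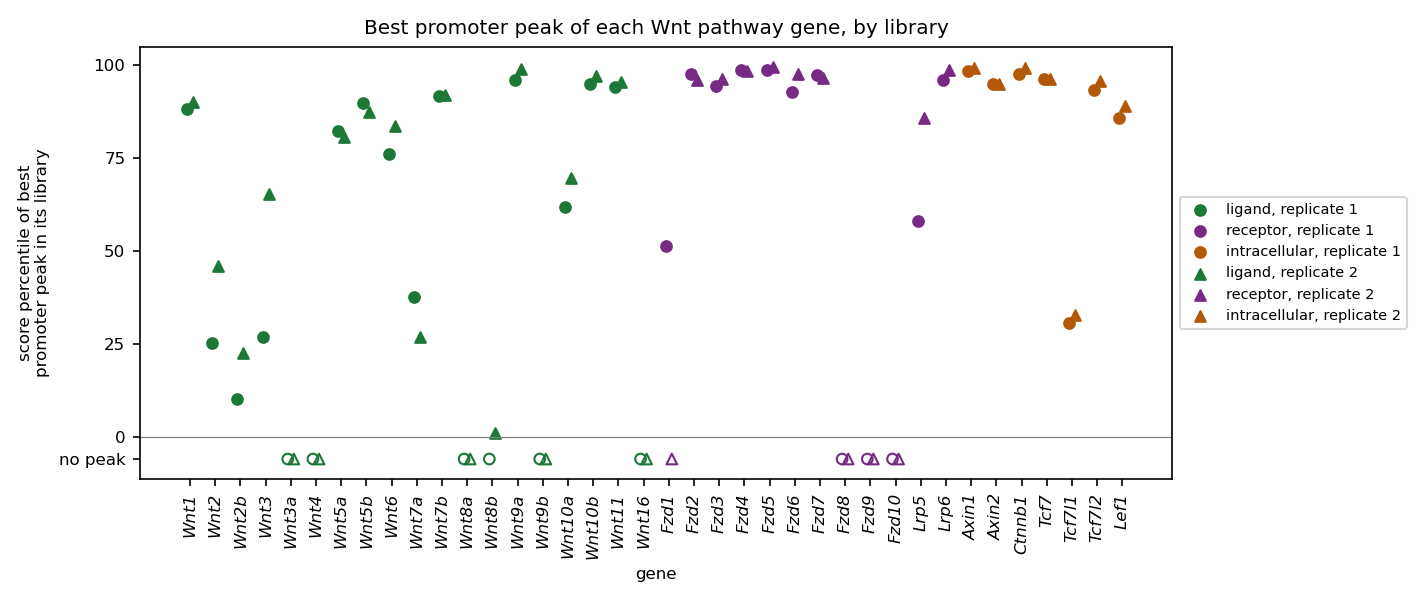
Score percentile of the best promoter peak (vertical axis, rank among all peaks of the same library in percent) for each of the 38 genes (horizontal axis) in replicate 1 (circles) and replicate 2 (triangles), with open symbols for no promoter peak. Receptors with a peak lie close to the top except Fzd1 and Lrp5, the ligands spread over the whole range, and 8 genes have open symbols in both libraries.

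Coordinates are on mm10, 1-based. Of the ligands, Wnt9a (chromosome 11, 59306928 to 59333552, plus strand), which acts in joint and skeletal development, had the highest-ranked promoter, with a score of 131 in replicate 1 and 141 in replicate 2 (percentiles 96.0 and 98.9). Wnt10b, known for holding back fat cell formation, scored 126 and 133 (94.7 and 96.9). Wnt11 (chromosome 7, 98835112 to 98855195, plus strand), a ligand of the beta-catenin-independent branch, scored 124 and 127 (94.1 and 95.3). Wnt7b (chromosome 15, 85535437 to 85582473, minus strand), a ligand of the lung and the nervous system, scored 115 and 114 (91.5 and 92.0), with its peak at -757 bp from the nearest start site in replicate 1. In these 4 genes the libraries lay within a few percentiles of each other.

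The promoter of Wnt1, the ligand of the midbrain-hindbrain boundary and the dorsal neural tube, scored 105 and 107 (88.2 and 90.1). Wnt5b and Wnt5a, both ligands of the beta-catenin-independent branch, scored 109 and 98 (89.6 and 87.2) and 91 and 81 (82.1 and 80.5). The best peak of Wnt5a was not the same site in both libraries. It lay 480 bp downstream of the outermost start in replicate 1 and 1080 bp downstream in replicate 2. The longest promoter hotspot of Wnt5a spanned 2665 bp in replicate 1 and 2580 bp in replicate 2. Wnt6, expressed in many epithelia, scored 80 and 88 (76.1 and 83.5), and Wnt10a, a ligand of teeth and hair, 60 and 61 (61.7 and 69.5). These 5 ligands lay below the median of all genes with a promoter peak in each library, as did Wnt7b. Wnt10b and Wnt11 lay below it in replicate 1, and Wnt9a lay above it in both libraries.

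The 4 other ligands with a promoter peak in both libraries ranked lower still. Wnt3, needed for gastrulation, scored 34 in replicate 1 and 55 in replicate 2 (26.9 and 65.2). Wnt2, a ligand of the placenta and lung, scored 33 and 36 (25.1 and 45.9). Wnt7a, which sets dorsal identity in the limb, scored 40 and 25 (37.5 and 26.9), and Wnt2b scored 24 and 23 (10.2 and 22.6). The 2 Wnt2b scores belong to different sites, at -109 bp from the nearest start in replicate 1 and at -549 bp in replicate 2. The longest promoter hotspots of Wnt2, Wnt2b and Wnt7a were short, between 106 bp (Wnt2b in replicate 1) and 312 bp (Wnt2 in replicate 2). The highest promoter hotspot values of these genes on the −log10 q-value scale lay between 1.78 and 4.52. The authors capped that scale at 100. The longest promoter hotspot of Wnt10a was also short, at 242 bp in replicate 1 and 257 bp in replicate 2. Its highest values on that scale were 4.7 and 3.5. Wnt3 reached the cap in replicate 2 and 2.12 in replicate 1.

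Wnt8b, a ligand of the dorsal forebrain, had a promoter peak in replicate 2 only. That peak had a score of 8, at percentile 1.09 of the list, and lay at the inner of its 2 start regions. No promoter peak or promoter hotspot was present in either library at Wnt3a, the ligand of the tail bud and hippocampus, or at Wnt4 (chromosome 4, 137277489 to 137299726, plus strand) and Wnt9b, which act in kidney formation. The same held at Wnt8a and at Wnt16, a ligand of cortical bone.

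Among the receptors, Fzd5 (chromosome 1, 64730558 to 64737751, minus strand) had the highest-ranked promoter, with scores of 141 and 144 (percentiles 98.6 and 99.5) in a single hotspot of 3137 bp in replicate 1 and 3118 bp in replicate 2. Those were the longest promoter hotspots of the 38 genes in both libraries. Fzd5 is known for its part in eye and vessel development. Fzd4, the receptor of norrin in the retina, scored 141 and 139 (98.6 and 98.4). Its best peak also lay within 1 kb of a start site of the neighbouring gene Tmem135, and the list cannot say which gene it belongs to. For no other of the 38 genes did the best peak lie so close to a start site of another protein-coding gene.

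Fzd2 and Fzd7, closely related receptors, scored 137 and 129 (97.6 and 95.8) and 136 and 131 (97.3 and 96.4). The third of their subfamily, Fzd1, had a peak in replicate 1 only, with a score of 50 at percentile 51.4. Fzd3, which guides axons through the planar polarity branch, scored 125 and 130 (94.4 and 96.1), and its partner Fzd6 scored 119 and 135 (92.7 and 97.4). The Fzd3 promoter peaks of the libraries did not overlap. The best lay at -27 bp from the start in replicate 1 and at 173 bp in replicate 2. No promoter peak or hotspot was present at Fzd8, Fzd9 or Fzd10 in either library.

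Of the co-receptors, Lrp6 scored 131 and 140 (96.0 and 98.6). Lrp5, known for its role in bone mass, scored 56 in replicate 1 and 94 in replicate 2 (57.9 and 85.8). Its longest promoter hotspot spanned 212 bp in replicate 1 and 1109 bp in replicate 2. The highest value of its promoter hotspots on the −log10 q-value scale was 2.95 in replicate 1 and the cap of 100 in replicate 2.

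Of the intracellular genes, Axin1, the scaffold of the degradation complex, scored 140 and 142 (98.3 and 99.1). Ctnnb1 (chromosome 9, 120929216 to 120960507, plus strand), which encodes beta-catenin, scored 137 and 142 (97.6 and 99.1). The TCF/LEF factors split. Tcf7 scored 132 and 130 (96.3 and 96.1), Tcf7l2 scored 121 and 128 (93.3 and 95.6) and Lef1 scored 99 and 103 (85.7 and 88.8). Tcf7l1, known mainly as a repressor, scored 36 and 28 (30.6 and 32.8). Axin2, a negative regulator that is itself a widely used target gene of beta-catenin, scored 126 and 125 (94.7 and 94.8). Tcf7l1 stood apart from the other 6 genes of its class in both libraries.

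Promoters rich in CpG are accessible in most cell types, so the calls were set beside promoter CpG content, given as the observed over expected ratio in the 500 bp to each side of the outermost start site. Its median was 0.80 in the 38 genes and 0.55 in all genes, with 0.65 in the ligands, 0.85 in the receptors and 0.83 in the intracellular genes. The share of all genes with a promoter peak in both libraries rose from 7.84% in decile 1 of the ratio to 91.8% in decile 10. Summed over the members, the shares of their own deciles gave 30.9 genes, where 28 had a peak. By class they gave 14.2 ligands, where 13 had one, 10.7 receptors, where 8 had one, and 6.0 intracellular genes, where 7 had one. The ratio was taken at the outermost start and the call at any start, so the 2 can refer to different sites. Ctnnb1 entered with a ratio of 0.40 (decile 5) from an outermost start that had no peak.

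Several of the promoters without a peak were rich in CpG. Fzd9 had a ratio of 0.92 and Fzd1, with its peak in replicate 1 only, 0.91, both in decile 10. Wnt4 (0.86) and Fzd10 (0.81) lay in decile 9, where 91.1% of all genes had a peak in both libraries. Wnt3a and Wnt9b (0.75 each) lay in decile 8, where 88.1% had one. Fzd8 (0.60) lay in decile 6, with 78.1%. Wnt8a (0.25), Wnt8b (0.33) and Wnt16 (0.35) had promoters poor in CpG, in deciles 3 and 4, where 28.8% and 42.2% of genes had a peak.

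**Figure D2:**
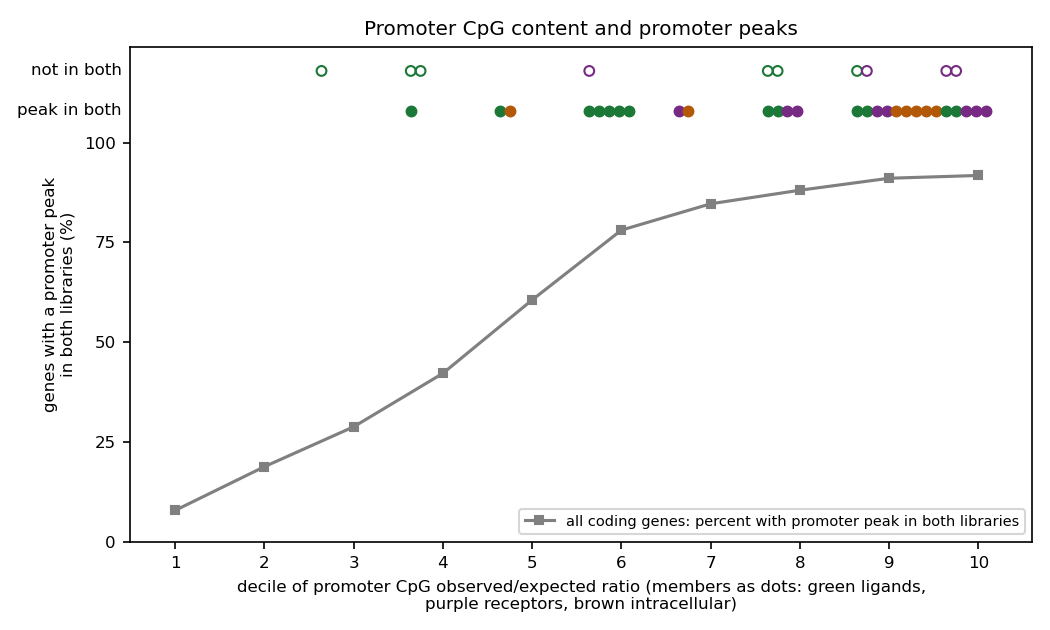
Percent of all protein-coding genes whose promoter held a peak in each library (grey squares, vertical axis) by decile of the promoter CpG observed over expected ratio (horizontal axis), with the 38 genes as dots above, filled for a peak in both libraries and open otherwise. The grey line climbs from 7.84% to 91.8%, and 7 of the 10 open dots lie in deciles 6 to 10.

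The annotation gives several start regions, here groups of start sites over 1 kb apart, to 17 of the 28 genes. At 5 of these 17 (29.4%) an inner region held a higher-scoring peak than the outermost one in both libraries, beside 16.7% of the 8704 protein-coding genes with several start regions and a promoter peak in both libraries. The 5 were Wnt5b, Wnt10a, Wnt11, Ctnnb1 and Tcf7l2. At Ctnnb1 the outermost start had no peak, and the region 4.2 kb downstream, which holds 6 of the start sites, reached percentiles 97.6 and 99.1. At Tcf7l2 the outermost region stood at 77.8 and 87.2 and a region 152.7 kb further into the gene at 93.3 and 95.6. That inner region holds starts of transcripts that lack the upstream exons.

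Wnt5b had 3 start regions, all with peaks. The outermost stood at percentiles 18 and 28.9, the next, 77.1 kb downstream, at 85.3 and 74.9, and the innermost, 95.0 kb downstream, at 89.6 and 87.2. At Wnt11 the outermost region stood at 83.5 and 88.8 and the next, 3.7 kb downstream, at 94.1 and 95.3. At Wnt10a the outermost region stood at 53.8 and 60.3 and the inner one, 1.8 kb downstream, at 61.7 and 69.5. Lrp6 and Axin1 held their strongest peak at the outermost region. Lrp6 stood at 96.0 and 98.6 there and at 39.1 and 57.5 at an inner region 95.7 kb downstream. Axin1 stood at 98.3 and 99.1 and, 49.5 kb downstream, at 35.8 and 44.5. Axin2 and Tcf7l1 had a peak at their outermost region and at none of their inner ones. At Lef1 the order depended on the library, with 80.1 and 88.8 at the outermost region and 85.7 and 88.5 at the region 2.3 kb downstream.

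**Figure D3:**
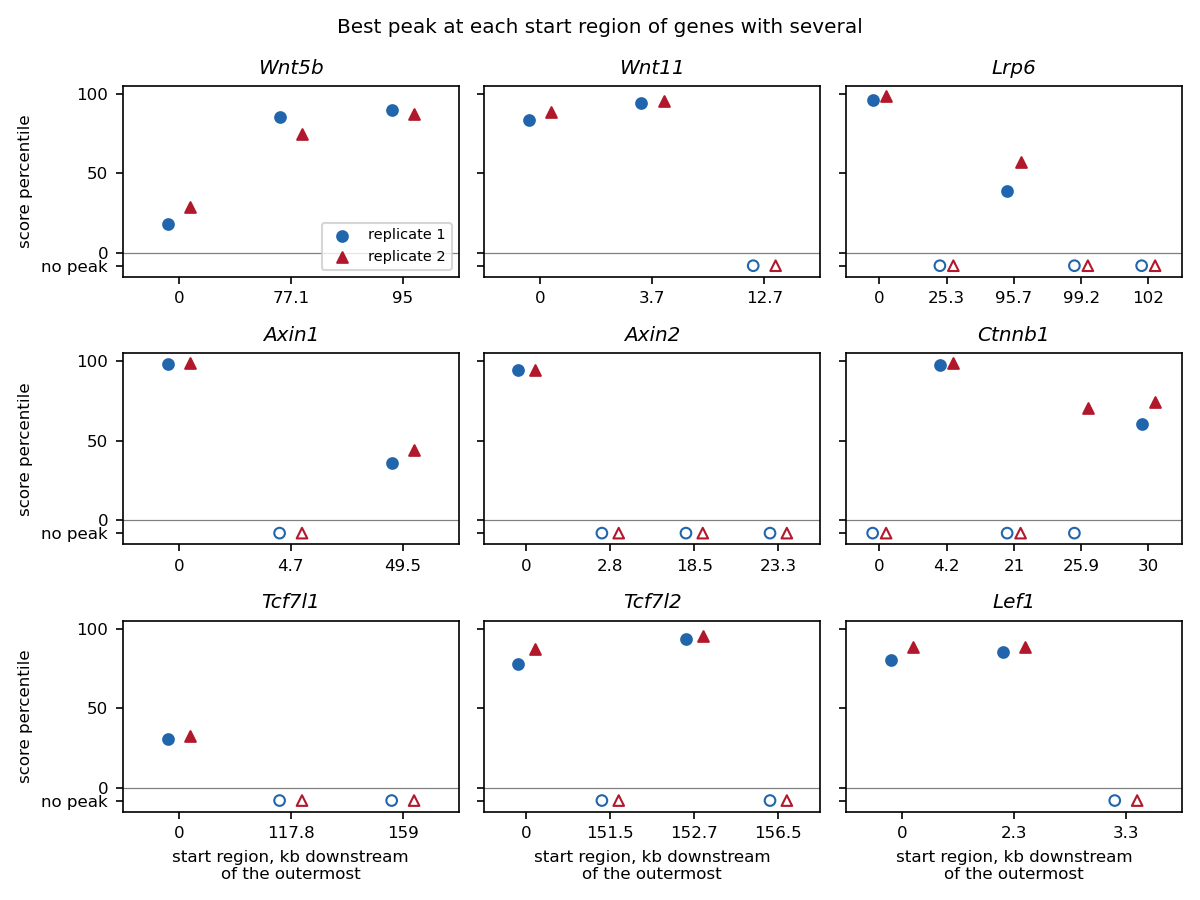
Score percentile of the best peak (vertical axis) at each start region of 9 genes, in replicate 1 (circles) and replicate 2 (triangles), with open symbols for no peak. The horizontal axis lists the regions by their distance in kb from the outermost one, at equal spacing, and shows the strongest peak at an inner region in Wnt5b, Wnt11, Ctnnb1 and Tcf7l2.

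A distal peak was a peak whose centre lay within 50 kb of the outermost start site of a gene and that was more than 1 kb from every protein-coding start site. Overlap with a peak of the second library by 1 bp or more made it shared, and shared peaks were counted in the list of replicate 1. All genes had a median of 4 shared distal peaks (quartiles 1 and 8), and 77.4% had at least 1. The 38 pathway genes had a median of 6.5, and all but 3 had at least 1. The ligands had a median of 14 (0 to 23), the receptors 5 (0 to 16) and the intracellular genes 6 (1 to 17). Counting each peak once, the 38 genes had 292 shared distal peaks, 174 of them round ligands, 64 round receptors and 54 round intracellular genes. Of the 292, 215 had a member as the protein-coding gene with the nearest start site. Hotspots gave medians of 11 for the ligands, 4.5 for the receptors and 5 for the intracellular genes, beside 4 for all genes.

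A count of 12 or more, a value picked after the counts were seen, was reached by 13.3% of all genes and by 14 of the 38. Of these 11 were ligands, and the others were Fzd2, Tcf7 and Lef1. The number of other protein-coding genes with a start in the window had a median of 0 for the ligands, 0.5 for the receptors and 0 for the intracellular genes, beside 2 for all genes. The shared distal peaks round ligands also ranked higher, with median percentiles of 73.0 and 72.4. Those round receptors had 59.9 and 51.6, those round intracellular genes 57.9 and 59.8, and all 82318 shared distal peaks 59.9 and 56.5. Of the ligand peaks 18 (10.3%) lay above the 90th percentile in both libraries, beside 4.30% of all shared distal peaks, 2 of the receptor peaks and 2 of the intracellular ones.

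**Figure D4:**
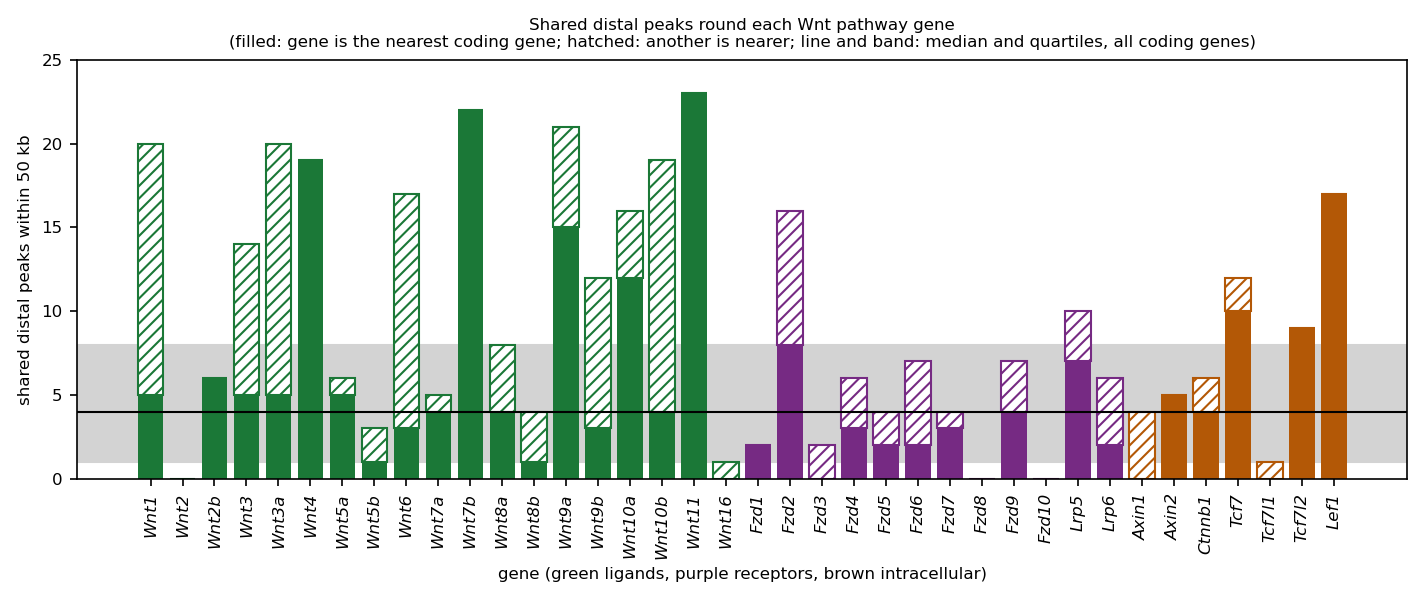
Count of shared distal peaks up to 50 kb from the outermost start site (vertical axis) for each of the 38 genes (horizontal axis, green ligands, purple receptors, brown intracellular), filled where the gene itself is the nearest protein-coding gene and hatched where another is nearer. The line and grey band give the median of 4 and the quartiles 1 and 8 of all protein-coding genes, and 11 of the 14 genes with 12 or more are ligands.

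Wnt11 had 23 shared distal peaks, the highest count, and Wnt7b 22. With every distal peak of replicate 1 counted, shared or not, Wnt11 had 35 and Wnt7b 29, and with every one of replicate 2 both had 31, where the median of all genes was 6 in each case. All of the shared ones had the named gene as the nearest protein-coding gene, and neither window held the start of another such gene. At Wnt7b 17 of the 22 lay upstream and the other 5 in its introns. Wnt4 had 19 shared distal peaks, all with Wnt4 as the nearest gene, although it had no promoter peak in either library. Of these, 14 lay downstream of the start site, and 7 lay in its introns. The closest lay 1.4 kb downstream of the start, outside the 1 kb promoter window, at percentiles 84.9 and 81.0. Replicate 1 alone gave 22 distal peaks at Wnt4 and replicate 2 gave 26.

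Wnt ligand genes often lie side by side, and 8 of the 19 form 4 neighbouring pairs whose windows overlap. Wnt3a and Wnt9a, with starts 16.2 kb apart on chromosome 11, had 20 and 21 shared distal peaks, of which 20 were the same. Wnt1 and Wnt10b, 11.7 kb apart on chromosome 15, had 20 and 19, with 18 in common. Wnt6 and Wnt10a, 19.6 kb apart on chromosome 1, had 17 and 16, with 16 in common. Wnt3 and Wnt9b, 24.3 kb apart on chromosome 11, had 14 and 12, with 8 in common. So the counts of paired genes are not separate observations. Counted once, the 8 paired ligands had 77 distinct peaks and a median of 18 per gene (12 to 21), with a median of 1.5 other genes in the window, and the 11 other ligands had 97 and a median of 6 (0 to 23), with a median of 0 other genes. Replicate 1 alone had 21 distal peaks at Wnt9b and 20 at Wnt3, and replicate 2 alone had 15 at Wnt9b and 22 at Wnt3. In the pairs Wnt3a with Wnt9a and Wnt9b with Wnt3, 1 gene had a promoter peak in both libraries and its neighbour had none, and of the peaks round Wnt3a 5 had Wnt3a as the nearest gene.

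Fzd2 had the most shared distal peaks of the receptors (16), and Lrp5 had 10, Fzd6 and Fzd9 7 each, Fzd4 and Lrp6 6 each, and Fzd5 and Fzd7 4 each. The order below Fzd2 depended on the library. Replicate 1 alone gave 24 at Fzd2, 13 each at Fzd6 and Fzd7, 12 at Lrp5, 9 at Fzd9 and 8 each at Fzd4 and Lrp6. Replicate 2 alone gave 18 at Fzd2, 13 at Lrp5, 9 each at Fzd6, Fzd7, Fzd9 and Lrp6, and 8 at Fzd4. Fzd9 is a further gene with distal peaks and no promoter peak. Lef1 had the most of the intracellular genes (17, of which 13 upstream and all with Lef1 as the nearest gene), and Tcf7 had 12, Tcf7l2 9 (of which 8 in its introns) and Ctnnb1 6. Here too the order depended on the library. Replicate 1 alone gave 24 at Lef1, 21 at Tcf7, 15 at Ctnnb1 and 13 at Tcf7l2, and replicate 2 alone gave 25, 14, 7 and 14. No shared distal peak lay round Wnt2, Fzd8 or Fzd10. Round Fzd8 there was no peak and no hotspot in either library within 50 kb. Round Fzd10 there were 5 distal peaks in replicate 1 and 4 in replicate 2, and none of them overlapped. Summed over the 38 windows, 158 distal peaks were in replicate 1 only and 128 in replicate 2 only, beside 354 shared ones. In these sums a peak in the windows of 2 genes counts for each of them. The share over all genes is not given here.

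**Figure D5:**
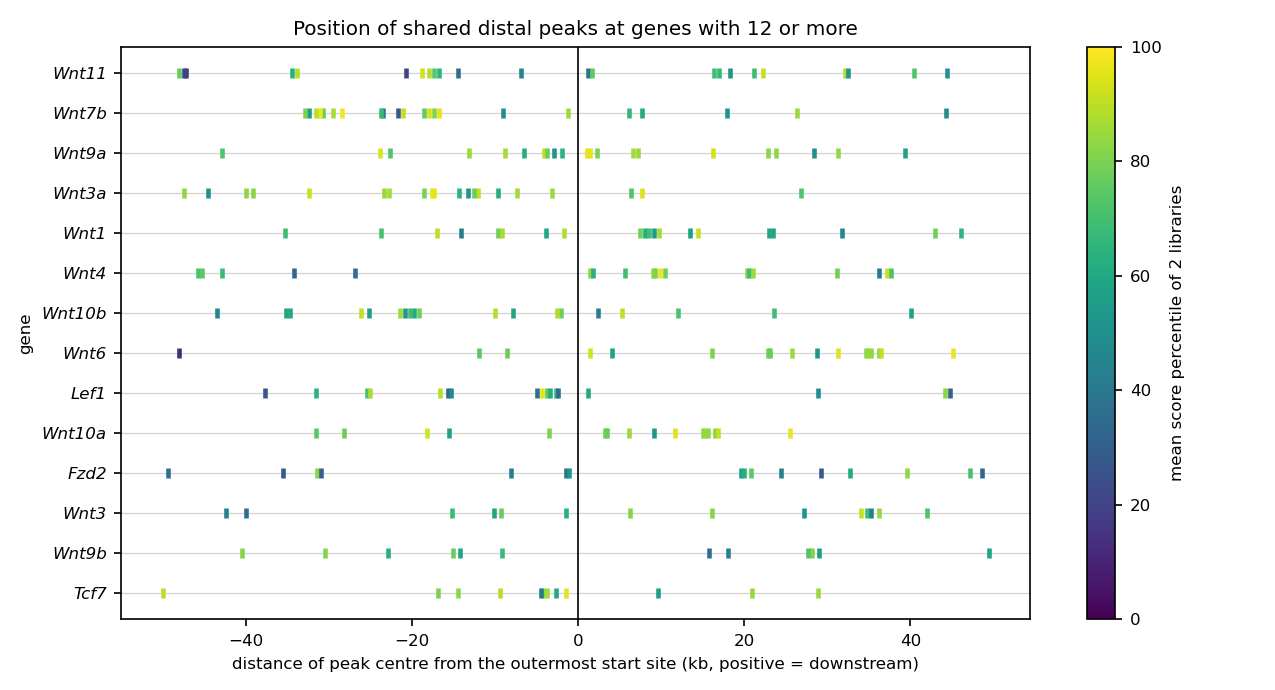
Distance of each shared distal peak from the outermost start site in kb (horizontal axis, positive downstream) for the 14 genes with 12 or more, coloured by the mean score percentile of both libraries. The peaks of Wnt7b lie mainly upstream, and Wnt4 is filled mainly downstream. Wnt6 and Wnt10a, both on the plus strand, show their common peaks at shifted distances. The other neighbouring ligands lie on opposite strands and show their common peaks in mirrored order.

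The highest-ranked shared distal peaks of 4 ligand loci, 2 receptor loci and 2 intracellular loci are printed next, 1 per gene, because they are the highest-scoring shared sites away from the promoters at these loci. Sequences are from the RefSeq copy of GRCm38, the assembly also called mm10, plus strand, 5′ to 3′. Capitals mark matches on either strand to 5 motifs: TCF/LEF (CTTTGAT), AP-1 (TGANTCA), CRE (TGACGTCA), SP/KLF (GGGCGG) and E-box (CAGCTG). The number after each gene is the distance from its outermost start site, negative upstream.
Wnt7b, -28.4 kb, chr15:85610836-85610985: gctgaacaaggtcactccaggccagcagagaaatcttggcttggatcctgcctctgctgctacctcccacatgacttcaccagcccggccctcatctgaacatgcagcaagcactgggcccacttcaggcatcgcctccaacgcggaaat
Wnt7a, -29.6 kb, chr6:91440876-91441025: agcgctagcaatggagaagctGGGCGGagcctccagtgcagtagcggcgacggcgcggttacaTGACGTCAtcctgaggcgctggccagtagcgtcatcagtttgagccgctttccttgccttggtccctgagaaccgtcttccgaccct
Wnt10a, 25.5 kb, chr1:74816916-74817065: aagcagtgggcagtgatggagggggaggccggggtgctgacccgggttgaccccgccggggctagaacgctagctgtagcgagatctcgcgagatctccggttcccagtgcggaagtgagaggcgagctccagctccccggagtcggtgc
Wnt4, 9.8 kb, chr4:137287256-137287405: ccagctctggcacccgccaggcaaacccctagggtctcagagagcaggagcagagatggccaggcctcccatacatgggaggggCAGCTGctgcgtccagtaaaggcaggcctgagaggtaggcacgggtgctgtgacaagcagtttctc
Fzd6, 36.1 kb, chr15:39042096-39042245: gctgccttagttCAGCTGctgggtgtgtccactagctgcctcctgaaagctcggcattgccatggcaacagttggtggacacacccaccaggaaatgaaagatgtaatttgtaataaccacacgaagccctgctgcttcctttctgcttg
Fzd9, -35.2 kb, chr5:135286336-135286485: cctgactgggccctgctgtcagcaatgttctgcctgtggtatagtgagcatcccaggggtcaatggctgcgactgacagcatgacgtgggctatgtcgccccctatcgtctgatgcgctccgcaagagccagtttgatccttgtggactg
Lef1, -4.4 kb, chr3:131106016-131106165: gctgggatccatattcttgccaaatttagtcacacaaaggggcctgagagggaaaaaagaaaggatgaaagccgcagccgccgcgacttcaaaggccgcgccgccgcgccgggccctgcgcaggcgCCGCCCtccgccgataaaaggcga
Tcf7, -1.4 kb, chr11:52284376-52284525: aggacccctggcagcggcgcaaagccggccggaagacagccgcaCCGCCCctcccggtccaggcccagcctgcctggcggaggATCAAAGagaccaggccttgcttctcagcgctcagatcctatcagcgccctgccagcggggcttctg

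The Wnt7b peak had the highest mean percentile of the 292, at percentiles 99.1 in replicate 1 and 97.6 in replicate 2, in intergenic DNA, and held no match to the 5 motifs. The Wnt7a peak (97.1 and 97.9) held a CRE and an SP/KLF match. It lies within 1 kb of annotated starts of the noncoding RNA genes 1810044D09Rik and 4930471M09Rik and could equally be listed as a peak at their promoters. Noncoding starts lay within 1 kb of 16 of the 292 peaks. These were 7 of the 174 round ligands, 7 of the 64 round receptors and 2 of the 54 round intracellular genes. The share over all shared distal peaks is not given here. The Wnt10a peak (97.8 and 96.4), also in the window of Wnt6, lies inside an enhancer that RefSeq lists from the VISTA collection with activity in the embryonic heart. Such listed enhancers covered 2 of the 292 peaks (0.685%, and 0.685% of all shared distal peaks), the other 47.7 kb downstream of the Lrp5 start. The Wnt4 peak (95.8 and 98.1) lies in an intron of Wnt4 and holds an E-box match.

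The Fzd6 peak (94.1 and 90.9) lies nearest to the start of Cthrc1, which encodes a secreted protein known to bind Wnt ligands and Frizzled receptors, and within 1 kb of a noncoding start that RefSeq gives to Gm7194. The Fzd9 peak (86.6 and 87.2) is intergenic and holds no match. The Lef1 peak (96.3 and 95.8) lies 4.4 kb upstream of the gene and holds an SP/KLF match. The Tcf7 peak (94.4 and 96.4), 1.4 kb upstream, holds a TCF/LEF match together with an SP/KLF match, and a second TCF/LEF match was found in the Tcf7 promoter peak itself, centred at -396 bp from the start.

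The peaks with a TCF/LEF match away from promoters are the second set printed, because these are the letters that the pathway's own factors bind. Besides the Tcf7 peak there were 5, and the capitals mark the same 5 motifs.
Wnt10a, 6.1 kb, chr1:74797556-74797705: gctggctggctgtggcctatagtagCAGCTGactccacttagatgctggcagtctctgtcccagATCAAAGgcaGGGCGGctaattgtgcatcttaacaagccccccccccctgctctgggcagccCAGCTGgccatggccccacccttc
Wnt10a, -15.5 kb, chr1:74775936-74776085: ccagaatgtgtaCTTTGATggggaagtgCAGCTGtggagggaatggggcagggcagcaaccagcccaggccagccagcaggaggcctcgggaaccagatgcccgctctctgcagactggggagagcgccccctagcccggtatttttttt
Wnt3, -1.4 kb, chr11:103772676-103772825: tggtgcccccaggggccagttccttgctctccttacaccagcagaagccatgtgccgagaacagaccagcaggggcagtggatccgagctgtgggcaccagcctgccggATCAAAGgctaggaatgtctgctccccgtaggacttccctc
Fzd4, -33.3 kb, chr7:89371016-89371165: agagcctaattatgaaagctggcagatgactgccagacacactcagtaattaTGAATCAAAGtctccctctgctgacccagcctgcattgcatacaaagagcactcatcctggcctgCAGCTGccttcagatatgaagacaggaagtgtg
Lef1, -37.7 kb, chr3:131072696-131072845: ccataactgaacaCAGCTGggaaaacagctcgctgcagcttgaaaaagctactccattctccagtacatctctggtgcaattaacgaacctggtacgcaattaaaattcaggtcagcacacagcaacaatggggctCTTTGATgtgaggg

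Of the 292 distal peaks 6 (2.05%) held the TCF/LEF letters, beside 1.90% of all shared distal peaks. The 2 peaks named for Wnt10a also lie in the window of Wnt6, and the peak named for Wnt3 also in that of Wnt9b. The peak 15.5 kb upstream of Wnt10a lies in an intron of Wnt6, 4.1 kb downstream of the Wnt6 start. Its nearest gene is Wnt6. The Wnt10a peak 6.1 kb downstream ranked at 89.9 and 80.5, the one 15.5 kb upstream at 68.1 and 45.9, the Wnt3 peak at 55.9 and 69.5, and the Fzd4 peak at 65.0 and 55.4. The Lef1 peak 37.7 kb upstream ranked lowest, at 14.6 and 38.2. In the Fzd4 peak, which lies in an intron of Tmem135, the TCF/LEF and AP-1 letters overlap and are printed as 1 run of capitals. Among the 75 shared promoter peaks of the 38 genes, 3 (4.0%) held the TCF/LEF letters, 1 each at Wnt11, Axin2 and Tcf7, beside 1.11% of the 31904 shared promoter peaks of all genes.

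The other motifs were also described in these peaks. SP/KLF letters were present in 9.93% of the 292 distal peaks and in 12.6% of those round ligands, beside 6.27% of all shared distal peaks. In the 75 promoter peaks they were present in 44.0%, beside 34.6%. E-box letters were present in 18.5% of the 292, beside 15.7%, AP-1 letters in 12.7%, beside 14.7%, and CRE letters in 1 peak, the printed one at Wnt7a, beside 0.513%. A match describes letters in the window, and binding of a factor was not measured.

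Other genes of the pathway were described from a list by role, of which all 67 names were found. A promoter peak in both libraries was present at 49 and in neither at 18, where the share over all genes was 59.2%. That share takes no account of promoter CpG content, and the shares of their CpG deciles are not given for these genes. Of the 9 nuclear cofactors all had one, among them Ctnnbip1, an inhibitor of beta-catenin (percentiles 99.5 and 99.9), the co-repressors Tle4 (99.8 and 98.9) and Tle1 (98.6 and 99.3), and Pygo2, a coactivator (99.8 and 98.6). Of the 16 cytoplasmic genes 14 had one. The kinases Csnk1d (97.8 and 99.1), Gsk3a (98.6 and 97.9) and Csnk1a1 (97.8 and 98.1) and the axin-modifying enzyme Tnks (97.8 and 97.9) ranked highest, and the feedback inhibitors Nkd1 and Nkd2 had none.

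The next groups act at the cell surface or before it, and their counts stand beside the 59.2% of all genes. Of 4 genes for secretion and ligand handling 3 had a peak in both libraries at the promoter: Wls, the carrier of Wnt proteins (86.2 and 91.8), Notum, which strips their lipid (84.9 and 85.8), and Porcn, which adds it (70.2 and 72.7). Trabd2b had none. Of 9 genes of the R-spondin axis, which raises the amount of Frizzled at the surface, 7 had one, led by the receptors Lgr4 (99.3 and 97.6) and Lgr5 (94.4 and 96.6), by Znrf3, a ligase that removes Frizzled (92.7 and 94.1), and by the ligand Rspo3 (87.0 and 87.2). Rspo2 and Rspo4 had none.

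The secreted antagonists and their Kremen receptors had the lowest share of the groups except the target genes, 6 of 13. Kremen1 (96.8 and 97.1), Dkk1 (94.7 and 93.4), Dkk3 (88.9 and 91.8) and Wif1 (86.2 and 83.1) had a promoter peak. Dkk2, Dkk4, Sfrp1 and Sfrp2 were among the 7 with none, and Sfrp1 had a CpG ratio of 1.04. Of the 4 alternative receptors Ryk (85.7 and 91.2) and Ptk7 (85.3 and 88.5) had one, and Ror1 and Ror2, receptors of Wnt5a, had none. Of the 7 planar cell polarity genes 6 had one, led by Celsr3 (98.3 and 98.4), Celsr2 (94.7 and 95.6), Vangl2 (93.0 and 94.1) and Prickle2 (88.9 and 88.5), and Vangl1 had none. Of 5 genes often used as targets, Myc (99.5 and 98.9) and Ccnd1 (94.7 and 90.9) had one and Sp5, Cdx1 and T had none. Myc and Ccnd1 are known to be regulated by many other pathways as well.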

How the data were processed

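DNase-seq peaks and hotspots of 2 MN1 libraries on mm10 were analysed. The authors called them in each library on its own filtered alignments, without pooling, per the notes deposited with the files. The aligner, caller and threshold were not given in the sources used here. Deposited peaks are 150 bp wide with a score, and the deposited hotspots carry a −log10 q-value capped at 100. The unit of the score and the depth are unknown, so no interval was computed.

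Repeated entries (43 and 20) were removed, and autosomes, X and Y were kept. Genes, start sites and noncoding genes came from GENCODE M21, and sequence and listed enhancers from RefSeq GRCm38.p6. Counting used Python 3.11.15, pandas 2.3.3 and numpy 2.4.6 and was tested on simulated data. No test was run, since there is 1 group. All members are accounted for. Named with values were those with a promoter peak in both libraries or in 1, per class the 4 with most and all with no shared distal peak, and per further group up to 4 with and 4 without a promoter peak. The members and lists were chosen with earlier results of these data known. Alternatives covered windows, start sites, overlap, hotspots, score and single libraries.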

Additional observations from a re-analysis of the deposited data

How the results depend on the processing

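The promoter counts of the 38 genes, of each class, of the further pathway genes and of all genes stayed within 1.5 times their main value under the alternatives run. Single calls moved: a window of 500 bp removed Wnt3 and Wnt7b, 2.5 kb added Wnt4, the outermost start alone removed Ctnnb1, and keeping the peaks above each list's median score removed Wnt2, Wnt2b, Wnt3, Wnt7a and Tcf7l1. Replicate 2 alone added Wnt8b and replicate 1 alone Fzd1. Distal counts followed the window by construction. The 292 distinct shared distal peaks became 160 within 25 kb, 554 within 100 kb and 190 above the median score. For ligands 174 became 106 and 326 by window, for receptors 64 became 27, 124 and 32, and for intracellular genes 54 became 27, 104 and 30, or 100 round the whole gene. The median of all genes, 4, became 2, 9 and 2, and the 3 genes with none became 7, 1 and 6. With every peak of 1 library counted, receptors had 95 to 104, intracellular genes 77 to 92, and 1 to 2 genes had none. The distal counts of single genes moved by over 1.5 times at 14 of the 38 with replicate 2 alone and at 13 with replicate 1 alone. Each alternative listed in the methods was run, and 1 limited to protein-coding transcripts, which moved no member's call, was added after seeing the data. The lack of depth, and of a stated score unit, with 2 libraries, limits every value. No paired analysis was possible because there is only 1 group.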
